A study of Mus musculus with 21 samples.

Results

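The respiratory chain subunits measured here were the products of 84 nuclear genes, of 12384 genes that the array annotation pairs with a probe set of exactly 1 symbol. They were all genes whose symbol starts with Nduf, Uqcr, Cox4 to Cox8 or Atp5, with Sdha to Sdhd, and the symbols rather than any measured value chose them. They comprised 34 genes of complex I, 5 complex I assembly factors with an Nduf symbol, 4 of complex II, 8 of complex III, 16 of complex IV and 17 of complex V. They were read by 156 probe sets, of which 11 were too dim to test; 83 genes could be tested, and Cox7c, a small subunit of complex IV, could not, its brighter probe set averaging a normalized intensity of 37.4.

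The study followed lung injury by bleomycin, a drug that damages DNA and leaves fibrosis in the mouse lung, in 3 inbred strains of both sexes. Each of the 21 Affymetrix arrays held RNA pooled from the right lungs of several mice, so the spread between arrays is a spread between pools. The treated mice received the drug from an osmotic minipump, males at 100 and females at 125 mg/kg. A/J mice, the strain known to be resistant, gave 2 control arrays, 4 arrays at 3 weeks (males at 80 and 100, females at 100 and 125 mg/kg) and 2 at 6 weeks. C57BL/6 mice, known to be susceptible, gave 2 control arrays, 2 at 3 weeks, 1 from females at 6 weeks and 2 from moribund animals, whose time after treatment the labels leave out. C3H/HeJ mice gave 2 arrays each for control, 3 weeks and 6 weeks. Groups of 2 were 1 male and 1 female pool. The sources used here do not give the treatment of the control mice or the age of any mouse.

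The respiratory chain passes electrons from NADH and succinate through complexes I to IV to oxygen and pumps protons across the inner mitochondrial membrane, and complex V makes ATP from that gradient. All cells with mitochondria express most of these subunits, and heart muscle, whose sleeves also line the large veins in the mouse lung, expresses them at very high levels. Complex IV is unusual in that several of its small subunits come in a muscle form, made in heart and skeletal muscle, and a form made in most other tissues: Cox6a2 against Cox6a1, Cox7a1 against Cox7a2, and Cox8b against Cox8a.

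The promoters of these isoforms are shown because the muscle forms are the members that fell most at 3 weeks. RefSeq windows on the build GRCm38.p6, from 250 bases before to 50 bases after the start of the gene, were given for 70 of the 84 members and for 27025 genes in all; the table has no entry for Cox6a2. Capitals mark matches, on either strand, to the core GCGCNTGCG of the factor NRF1, to the core CCGGAAG of the factor GABP, to the site AAGGTCA of the receptor ERR, to the E-box CAGCTG and to the TATA box TATAAA. Cox7a1, the muscle form, lies at chr7:30183921-30184220 on the plus strand, and Cox7a2 at chr9:79759804-79760103 on the minus strand. Cox8b, the muscle form, lies at chr7:140900397-140900696 on the minus strand, Cox8a at chr19:7217567-7217866 on the minus strand, and Cox6a1 at chr5:115348909-115349208 on the minus strand.
Cox7a1: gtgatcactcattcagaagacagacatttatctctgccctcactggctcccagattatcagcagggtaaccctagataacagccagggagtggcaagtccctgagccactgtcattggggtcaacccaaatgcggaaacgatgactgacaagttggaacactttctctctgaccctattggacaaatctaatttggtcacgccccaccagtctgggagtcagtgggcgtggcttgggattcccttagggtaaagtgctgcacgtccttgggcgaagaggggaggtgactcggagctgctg
Cox7a2: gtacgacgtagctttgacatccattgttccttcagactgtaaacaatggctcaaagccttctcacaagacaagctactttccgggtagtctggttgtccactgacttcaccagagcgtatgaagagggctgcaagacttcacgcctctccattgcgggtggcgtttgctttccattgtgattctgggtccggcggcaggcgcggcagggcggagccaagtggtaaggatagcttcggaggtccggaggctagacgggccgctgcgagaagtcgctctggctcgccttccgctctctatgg
Cox8b: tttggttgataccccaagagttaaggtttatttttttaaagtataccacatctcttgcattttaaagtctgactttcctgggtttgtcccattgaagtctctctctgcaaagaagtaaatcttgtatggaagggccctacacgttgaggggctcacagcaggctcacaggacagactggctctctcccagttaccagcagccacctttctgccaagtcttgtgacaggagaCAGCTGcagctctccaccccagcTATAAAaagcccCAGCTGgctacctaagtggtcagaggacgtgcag
Cox8a: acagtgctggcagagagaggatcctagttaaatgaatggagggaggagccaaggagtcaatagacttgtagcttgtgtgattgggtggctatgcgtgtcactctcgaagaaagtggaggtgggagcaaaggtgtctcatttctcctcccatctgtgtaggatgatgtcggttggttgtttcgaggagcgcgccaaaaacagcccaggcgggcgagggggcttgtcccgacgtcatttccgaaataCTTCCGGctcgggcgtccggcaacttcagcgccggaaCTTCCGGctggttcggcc
Cox6a1: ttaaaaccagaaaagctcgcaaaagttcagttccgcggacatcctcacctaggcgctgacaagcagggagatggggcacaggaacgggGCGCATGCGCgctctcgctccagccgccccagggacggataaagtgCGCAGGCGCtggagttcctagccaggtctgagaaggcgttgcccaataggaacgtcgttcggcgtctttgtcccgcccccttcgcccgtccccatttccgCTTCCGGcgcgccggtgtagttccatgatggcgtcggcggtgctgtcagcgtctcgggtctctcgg

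Neither Cox7a window held any of these letters. The Cox8b window held 2 E-box matches and 1 TATA box match, the Cox8a window 2 GABP matches, and the Cox6a1 window 1 GABP match and 3 matches to the NRF1 core, of which 2 overlap because the core reads on both strands. Among the 70 members with a window, 23 (32.9%) held the NRF1 core against 7.12% of all windows, and 18 (25.7%) the GABP core against 9.93%. The ERR site was in 7 members (10.0%) against 5.38% of all windows, the E-box in 6 (8.57%) against 18.3% and the TATA box in 7 (10.0%) against 15.7%. The consensus of the muscle factor MEF2 was in 0 of the 70 member windows and in 0.636% of all windows.

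As deposited, the arrays differed in brightness, with medians of 58.5 to 111. Their values were brought to 1 distribution by quantile normalization and put on a log2(intensity + 16) scale, on which the fall of a dim gene is understated. The ratio of 3' to 5' Gapdh probe sets, a sign of RNA integrity, lay between 0.77 and 1.34 except in the C3H/HeJ female array at 6 weeks, where it was 2.08. Levels of Xist and Eif2s3y separated the male and female arrays as labelled. The tissue label of lung was borne out by its markers: the intensities of 15 type 2 alveolar cell markers summed to between 39979 and 44841 in the A/J and C57BL/6 control arrays. A gene was called changed where limma's moderated test, over all 9082 genes, gave a Benjamini-Hochberg adjusted p under 0.05.

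At 3 weeks the median member change over the 3 strains was close to 0, and members were called less often than all genes. Within strains the medians were 0.08 in C57BL/6, -0.06 in A/J and -0.13 in C3H/HeJ. Over the mean of the 3 strains, 10 of 83 members were called (12%), against 17.2% of all genes. Of these, 3 rose, against 8.03% of all genes, and 7 fell, against 9.15% of all genes, and with the values as deposited, whose median over all genes lay at -0.27, 0 members rose and 20 fell (24.1%, against 22.4% of all genes called). The median member change was -0.01 on the log2 scale, with 38 members above 0 and 45 below, and the median size of change without its sign was 0.08 against 0.15 over all genes. The changes ran from -0.68 for Cox6a2 to 0.52 for Cox6b2. The 10 calls became 4 without the female control array of C57BL/6 or of C3H/HeJ, 5 without the male control array of A/J or C57BL/6, and 6 without the A/J female control, the C3H/HeJ male control or the C57BL/6 male array at 3 weeks.

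The calls lay in complexes I and IV, in a comparison in which 17.2% of all genes were called. Complex IV, the oxygen-consuming enzyme, had 6 of its 15 tested members called: Cox6a2, Cox7a1, Cox8b and Cox6c fell, and Cox5a and Cox6b2 rose. Complex I, which oxidizes NADH, had 4 of 34 called, a smaller share than over all genes: Ndufa6, Ndufb11 and Ndufb3 fell, and Ndufb1 rose. None of the 5 complex I assembly factors was called in limma's fit, nor any member of complexes II, III or V, and the unadjusted p was under 0.05 in 19 of the 83 members (22.9%, against 29.8% of all genes), among them 2 of complex III and 2 of complex V. The median changes were -0.06 for complex I, 0.01 for complexes II and III, 0.04 for complex IV and 0.03 for complex V.

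**Figure D1:**
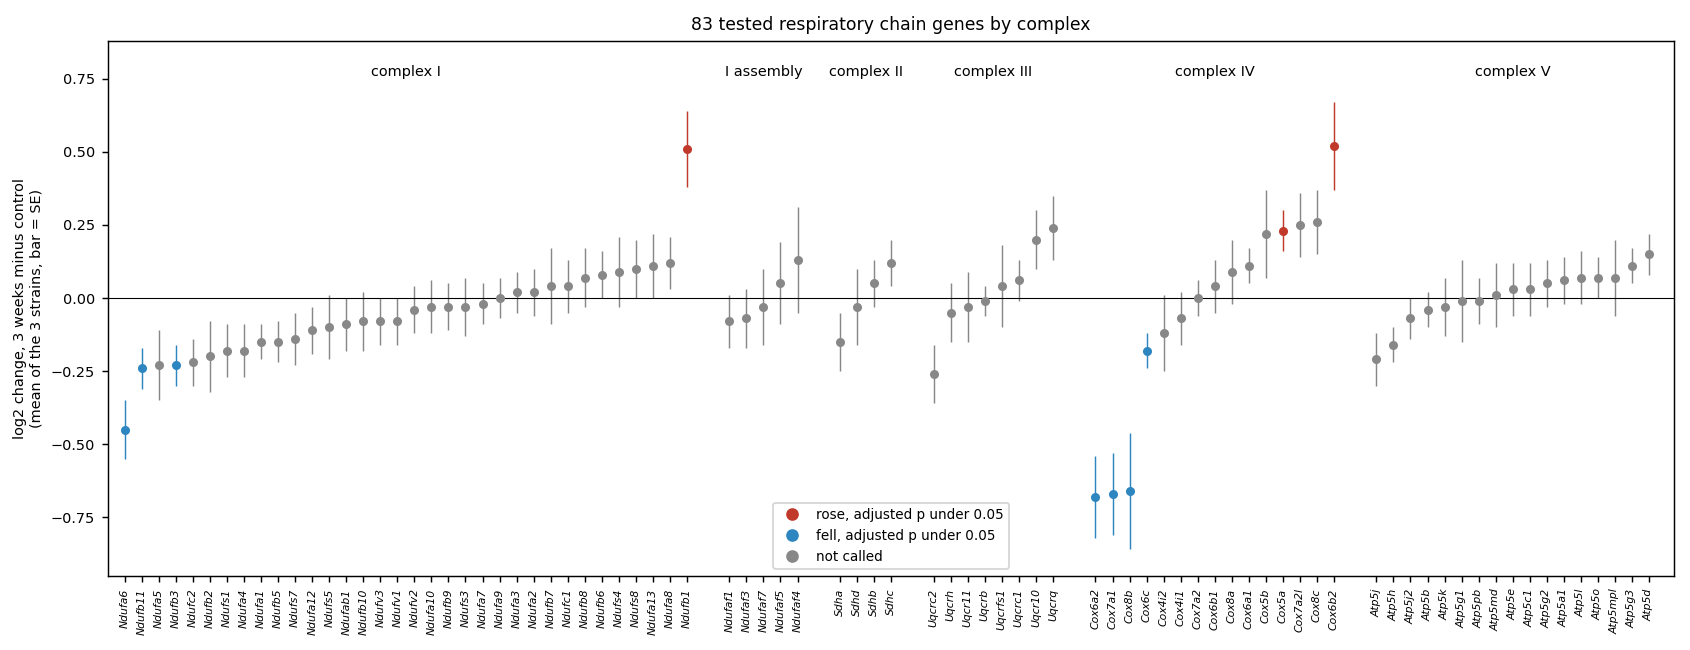
Log2 change at 3 weeks against control, mean of the 3 strains, for each of the 83 tested members (points, with bars for the SE), grouped by respiratory complex and coloured by limma's call. Most members lie close to 0, and the 3 lowest points, -0.68 to -0.66, are the muscle forms Cox6a2, Cox7a1 and Cox8b of complex IV.

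The deepest falls were those of the 3 muscle-type subunits of complex IV. Cox6a2, the heart and skeletal muscle form of subunit 6a, was at 9.01 and 8.28 in the A/J control arrays (male, then female, log2 scale), at 8.20 and 8.35 in males and 8.43 and 8.01 in females at 3 weeks, and at 8.60 and 8.22 at 6 weeks. In C57BL/6 it was at 8.40 and 8.79 in controls, 7.55 in both 3-week arrays, 7.83 in the 6-week array, and 7.27 and 7.73 in the moribund arrays. In C3H/HeJ it was at 8.14 and 8.66 in controls, 8.07 and 7.52 at 3 weeks, and 8.61 and 8.66 at 6 weeks. The 3-week arrays lay below both controls in C57BL/6 and C3H/HeJ, overlapped the lower control in A/J, and the C3H/HeJ arrays at 6 weeks were back among their controls. Cox6a2 fell at 3 weeks over the 3 strains by 0.68 (SE 0.14, limma adjusted p = 0.00338).

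Cox7a1, the muscle form of subunit 7a, stood higher in A/J than elsewhere before treatment. It was at 7.29 and 7.08 in the A/J controls, at 6.40 and 5.87 in males and 6.47 and 6.40 in females at 3 weeks, and at 6.64 and 6.55 at 6 weeks. In C57BL/6 it was at 5.78 and 6.31 in controls, 5.43 and 5.82 at 3 weeks, 5.44 at 6 weeks, and 5.20 and 5.16 in moribund mice. In C3H/HeJ it was at 6.13 and 6.32 in controls, 5.64 and 5.44 at 3 weeks, and 6.38 and 6.08 at 6 weeks. All A/J and C3H/HeJ arrays at 3 weeks lay below their controls, while the C57BL/6 arrays at 3 weeks overlapped theirs. Over the 3 strains Cox7a1 fell by 0.67 (SE 0.14, limma adjusted p = 0.00304).

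Cox8b, the muscle form of subunit 8, was at 7.34 and 7.41 in the A/J controls, 7.13 and 6.76 in males and 6.81 and 7.59 in females at 3 weeks, and 7.71 and 7.24 at 6 weeks. In C57BL/6 it was at 6.55 and 6.94 in controls, 5.16 and 6.34 at 3 weeks, 6.07 at 6 weeks, and 5.23 and 6.00 in moribund mice. In C3H/HeJ it was at 6.80 and 7.59 in controls, 6.55 and 6.5 at 3 weeks, and 7.25 and 6.56 at 6 weeks. The 3-week arrays were below both controls in C57BL/6 and C3H/HeJ, and the A/J female array at 125 mg/kg was above both of its controls. Over the 3 strains Cox8b fell by 0.66 (SE 0.20, limma adjusted p = 0.0321), a call that 8 of the 14 fits leaving out 1 array lost, with adjusted p up to 0.142. Cox7a1 and Cox8b stood close to the added 16 in the lowest arrays, where log2 of the offset is 4, so their falls are understated.

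**Figure D2:**
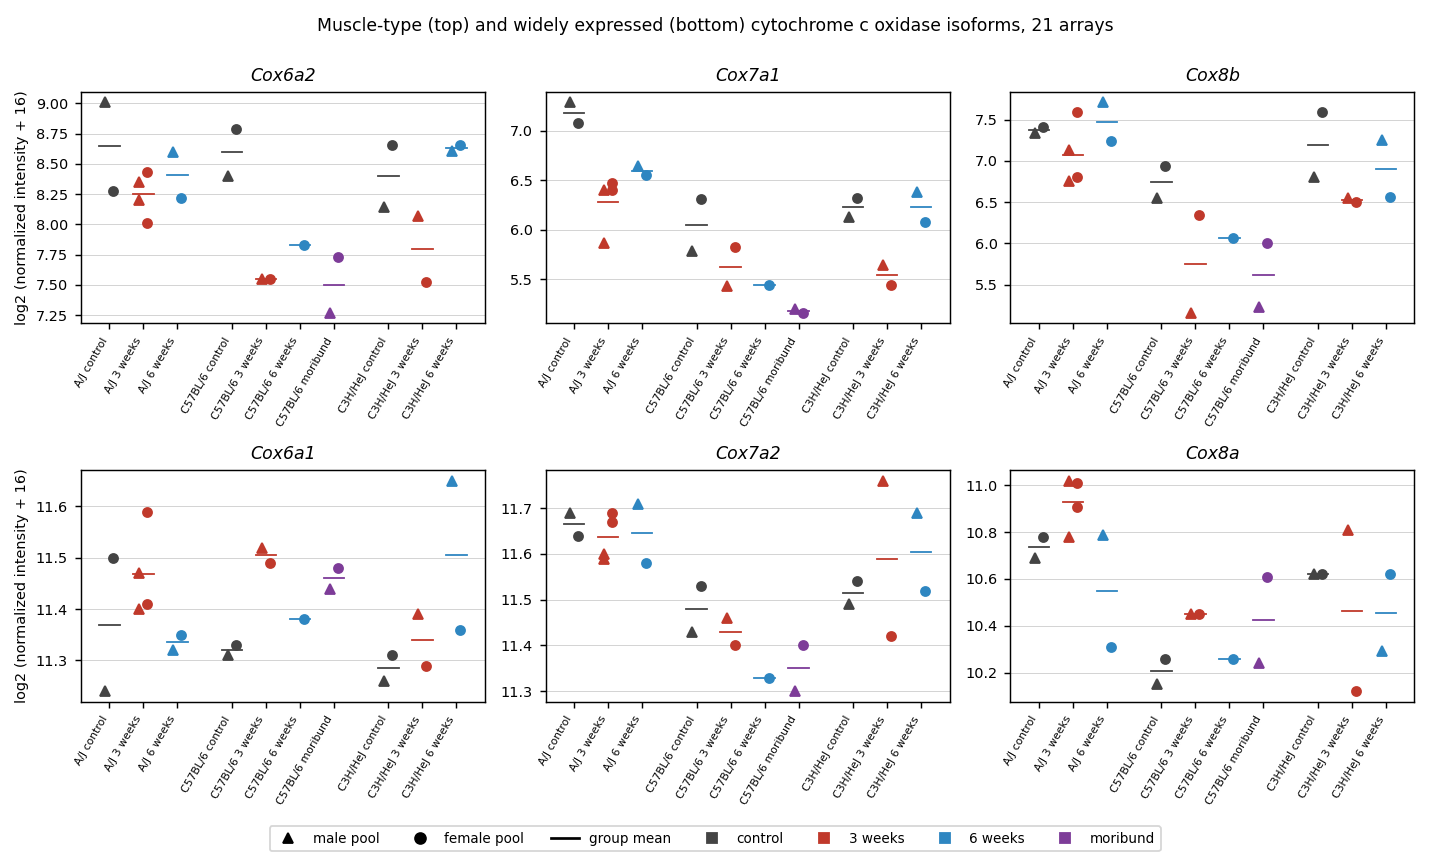
Log2(normalized intensity + 16) in each of the 21 arrays for muscle-type and general forms of 3 subunits of complex IV; triangles are male pools, circles female pools, and horizontal lines group means. The muscle forms Cox6a2 and Cox8b are lower at 3 weeks than in controls in C57BL/6 and C3H/HeJ and Cox7a1 in A/J and C3H/HeJ, while the general forms Cox6a1 and Cox8a are above their controls at 3 weeks in C57BL/6; each gene has an axis of its own.

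The general forms of the same subunits showed no such fall. Cox6a1 changed by 0.11 (limma adjusted p = 0.227), Cox7a2 by 0.00 (limma adjusted p = 0.997) and Cox8a by 0.09 (limma adjusted p = 0.611), while the values as deposited gave -0.16, -0.29 and -0.18 against that all-gene median of -0.27. Within each array the muscle form was then set against its general form, and the change of that log2 difference was tested by an exact two-sided permutation test, with labels exchanged between control and 3-week arrays within each strain; 540 labellings give a smallest p of 0.00185, and 4 pairs were tested with Benjamini-Hochberg adjustment. The difference Cox7a1 minus Cox7a2 fell by 0.67 (A/J -0.87, C57BL/6 -0.37, C3H/HeJ -0.76), with an exact permutation p of 0.0037, adjusted 0.0148. Cox6a2 minus Cox6a1 fell by 0.80 (-0.50, -1.23 and -0.66 for the strains in that order), with an exact permutation p of 0.00926, adjusted 0.0185. Cox8b minus Cox8a fell by 0.75 (-0.49, -1.24 and -0.51), with an exact permutation p of 0.0241, adjusted 0.0321; the values as deposited ended that call (-0.71, exact permutation, adjusted p = 0.0519). Without the A/J male control Cox6a2 minus Cox6a1 stood at -0.63 (exact permutation, adjusted p = 0.0667), and the Cox8b pair lost its call in 6 of 14 fits, those without either A/J control, either C57BL/6 control, the C3H/HeJ female control or the C3H/HeJ male array at 3 weeks. These values show unequal change of the 2 forms and do not show that the general form stayed constant.

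In the fourth pair the forms did not part over the 3 strains. Cox4i2, a form of subunit 4 known to be enriched in lung, minus Cox4i1, the form of most tissues, changed by -0.05, with A/J at 0.03, C57BL/6 at -0.83 and C3H/HeJ at 0.66 (exact permutation p = 0.941). Cox4i1 itself was at 10.88 in the C3H/HeJ male array at 3 weeks and at 10.14 in the female array, against 10.86 and 10.96 in the controls. The C3H/HeJ value thus rests on the female array, in which the mean of the 80 members outside the muscle trio was also at its lowest, 0.22 below control.

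Among the other complex IV subunits, Cox6c, Cox5a and Cox6b2 were called and moved less. Cox6c, a nuclear subunit of the membrane part of the enzyme, fell by 0.18 (SE 0.06, limma adjusted p = 0.0328), and its 3-week arrays lay below the controls in A/J and C3H/HeJ. That call was lost in 8 of 14 fits leaving out 1 array (limma adjusted p up to 0.144), on scaling to 1 median (0.166) and without the filter (0.0592). Cox6b2, known as a testis form of subunit 6b, was at 6.95 and 6.87 in the C57BL/6 controls, 7.69 and 8.12 at 3 weeks, and 6.82 and 7.0 in moribund mice. It rose over the 3 strains by 0.52 (SE 0.15, limma adjusted p = 0.0238), in C57BL/6 alone without overlap with controls, and the moribund arrays were at control level. The call was lost in 5 of 14 fits leaving out 1 array (limma adjusted p up to 0.0922), and the values as deposited gave 0.28 (adjusted p = 0.264). Its general partner Cox6b1 changed by 0.04, and Ndufa4, now counted with complex IV, by -0.18, neither called.

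Cox5a, a nuclear subunit on the matrix side of complex IV, was the 1 member whose response was called different between strains, C57BL/6 against A/J. That is 1.2% of members, against 1.57% of all genes. The call was lost with the values as deposited (limma adjusted p = 0.404) and without the filter (0.0526). Cox5a was at 10.14 and 10.15 in the C57BL/6 controls, 10.62 and 10.93 at 3 weeks, 10.37 at 6 weeks, and 10.58 in both moribund arrays. In A/J it was at 10.52 and 10.53 in controls, 10.45, 10.62, 10.35 and 10.30 at 3 weeks, and 10.42 and 10.46 at 6 weeks. In C3H/HeJ it was at 10.41 and 10.15 in controls, 10.47 and 10.39 at 3 weeks, and 10.78 and 10.80 at 6 weeks. Every treated C57BL/6 array was above its controls, the A/J arrays lay around theirs, and the C3H/HeJ arrays at 6 weeks were the highest of that strain. Over the 3 strains Cox5a rose by 0.23 (SE 0.07, limma adjusted p = 0.0326), against -0.06 with the values as deposited. Leaving out 1 array ended the call in 7 of 14 fits, as did scaling to 1 median (0.20, limma adjusted p = 0.141). Within C57BL/6 it rose by 0.63 (SE 0.13, limma adjusted p = 0.00293). Its other probe sets gave 0.35 and 0.44 in C57BL/6 and were not called.

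In complex I, Ndufb1 rose and Ndufa6, Ndufb11 and Ndufb3 fell, all of them accessory subunits outside the catalytic core. Ndufb1 was at 6.17 and 6.19 in the A/J controls and at 6.85, 6.69, 6.56 and 6.81 at 3 weeks, and at 6.10 and 5.93 in the C57BL/6 controls, 7.03 and 7.0 at 3 weeks, 6.42 at 6 weeks and 6.79 and 7.24 in moribund mice. In C3H/HeJ it was at 6.14 and 6.38 in controls and 6.30 and 6.16 at 3 weeks. It was thus above the controls in every 3-week array of A/J and C57BL/6 and among them in C3H/HeJ, and rose over the 3 strains by 0.51 (SE 0.13, limma adjusted p = 0.0132), against 0.33 with the values as deposited (adjusted p = 0.173).

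Ndufa6, a small accessory subunit of the LYR protein family, was below the controls in every 3-week array of the 3 strains. It was at 10.08 and 9.80 in the A/J controls and 9.47, 9.56, 9.71 and 9.59 at 3 weeks. In C57BL/6 it went from 9.62 and 9.52 in controls to 9.18 and 9.09 at 3 weeks, and in C3H/HeJ from 9.62 and 9.80 to 9.21 and 9.11. It fell over the 3 strains by 0.45 (SE 0.10, limma adjusted p = 0.00609), a call that each of the 14 fits leaving out 1 array kept, as they did for Cox6a2 and Cox7a1. At 6 weeks it was at 10.03 and 9.45 in A/J and at 9.20 and 9.60 in C3H/HeJ, so that 1 of 2 arrays in A/J and neither in C3H/HeJ reached the lower control.

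Ndufb11, an accessory subunit of the membrane arm, also lay below the controls in all 3 strains: it went from 10.41 and 10.48 to 10.05 and 10.23 in C57BL/6, from 10.66 and 10.55 to between 10.27 and 10.52 in A/J, and from 10.46 and 10.55 to 10.39 and 10.14 in C3H/HeJ. It fell by 0.24 (SE 0.07, limma adjusted p = 0.0304), a call that 7 of 14 fits leaving out 1 array lost (adjusted p up to 0.109), as did scaling to 1 median (adjusted p = 0.106). Ndufb3, of the same arm, fell by 0.23 (SE 0.07, limma adjusted p = 0.0478), a call lost in 12 of those 14 fits and on scaling to 1 median (adjusted p = 0.0622). The core subunits did not pass the test: Ndufs1, which carries iron-sulfur clusters, changed by -0.18, and Ndufv1, which binds the flavin that takes electrons from NADH, by -0.08. Ndufb1, Ndufa6, Ndufb3 and the muscle trio are each read by 1 probe set, so none has a second one beside it. Of 41 members with several tested probe sets, 27 had the same sign in all of them. Ndufa7, a complex I member not called by its brightest probe set, had 1 of 5 tested probe sets called. The changes of those 5 ran from -0.27 to -0.02.

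**Figure D3:**
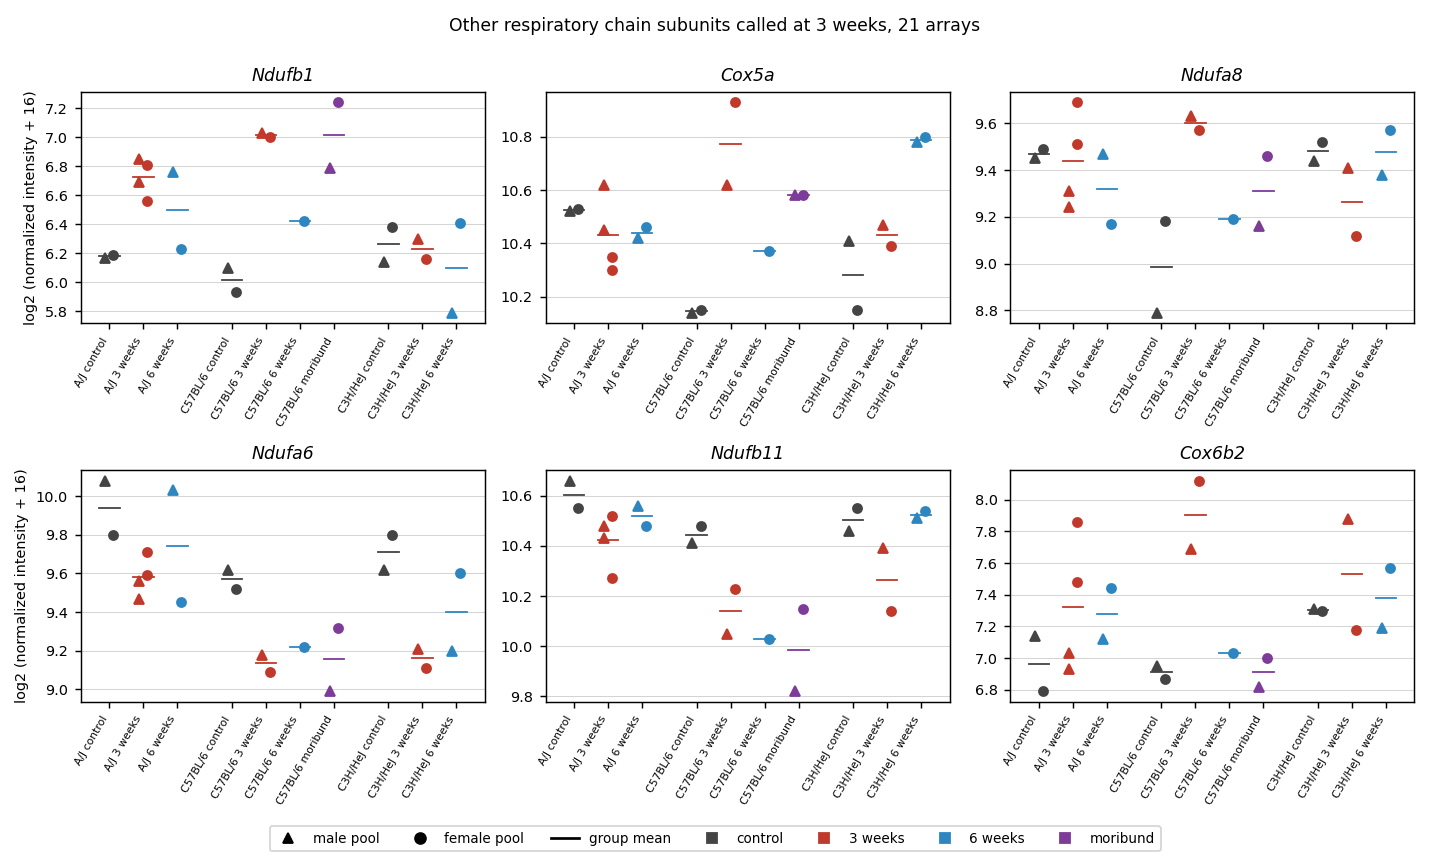
Log2(normalized intensity + 16) in each of the 21 arrays for 6 further members called at 3 weeks; triangles are male pools, circles female pools, and horizontal lines group means, with an axis of its own for each gene. Ndufa6 and Ndufb11 are below the controls at 3 weeks in each strain, while Cox5a, Ndufa8 and Cox6b2 are above them in C57BL/6.

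In the mean of the 3 strains no member of complexes II, III or V was called by its brightest probe set. In complex II, which oxidizes succinate, Sdha changed by -0.15 and Sdhb by 0.05; a second, dimmer probe set of Sdha gave -0.25 and was called (SE 0.08, limma adjusted p = 0.0374). In complex III, which reduces cytochrome c, Uqcrc1, a core protein, changed by 0.06 and Uqcrfs1, the Rieske iron-sulfur protein, by 0.04. Uqcrq, a small subunit that binds ubiquinone, changed by 0.24 over the strains. The 17 members of complex V, the ATP synthase, stayed within -0.21 and 0.15, with Atp5a1 at 0.06 and Atp5b at -0.04, the alpha and beta subunits of its catalytic head.

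Within single strains the members were called no more often than other genes. In C57BL/6 at 3 weeks 6 of 83 were called (7.23%) against 13.1% of all genes, 5 of them higher, against 7.08% of all genes, and 1 lower, against 6.0%. Cox6a2 fell by 1.04 (SE 0.26, limma adjusted p = 0.0128). Ndufb1 rose by 1.0 (SE 0.24, limma adjusted p = 0.00952), Cox6b2 by 0.99, Uqcrq by 0.65, Cox5a by 0.63 and Ndufa8, an accessory subunit of complex I, by 0.62. Each of these 6 calls was lost in some fit leaving out 1 array, with Cox6a2 between -1.28 and -0.81. With the values as deposited none of these 5 rises was called by limma (adjusted p from 0.162 to 0.426). The other probe sets of Uqcrq gave 0.13, 0.03 and -0.20. Cox8b changed by -1.0 and Cox7a1 by -0.42 and were not called (limma adjusted p = 0.0847 and 0.311). The median member change was 0.08, with 54 members above 0 and 29 below. The 6 calls became 1 without the male array at 3 weeks, 2 without the female control and 3 without the male control.

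In A/J and C3H/HeJ no member was called at 3 weeks, where 1.08% and 2.83% of all genes were. In A/J, 7 members had an unadjusted limma p under 0.05, against 10.9% of all genes, and the smallest adjusted p was that of Cox7a1, at -0.90 (SE 0.22, limma adjusted p = 0.061). In C3H/HeJ, 9 members had an unadjusted limma p under 0.05, against 16.4% of all genes, with Cox7a1 at -0.69, Cox8b at -0.67, Cox6a2 at -0.61 and Ndufa6 at -0.55. There Cox8c, another testis form, changed by 0.69 (SE 0.20, limma adjusted p = 0.080). The median member change was -0.06 in A/J, with 54 members below 0, and -0.13 in C3H/HeJ, with 61 below 0. Without the male C3H/HeJ array at 3 weeks 3 members were called in that strain.

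In moribund C57BL/6 mice the 3 muscle-type subunits were called lower, and leaving out 1 array ended each of these calls in some fits. Those fits gave -1.37 to -0.81 for Cox6a2, -1.12 to -0.62 for Cox7a1 and -1.42 to -0.84 for Cox8b. Against control, 6 members were called against 15.2% of all genes, 2 higher, against 6.93% of all genes, and 4 lower, against 8.31%. Cox8b fell by 1.13 (limma adjusted p = 0.0434), Cox6a2 by 1.09 (limma adjusted p = 0.00855), Cox7a1 by 0.87 (limma adjusted p = 0.0267) and Ndufb11 by 0.46, while Ndufb1 rose by 1.0 and Cox5a by 0.43. The Cox8b call was lost in 4 of 4 fits leaving out 1 array (adjusted p up to 0.212), with an offset of 64 (-0.67, limma adjusted p = 0.0709) and without the filter (0.0731). Scaling to 1 median ended the calls of Cox5a (limma adjusted p = 0.0922) and Ndufb11 (0.146). The 6 calls became 0 without the female control, 3 without the male control and 2 without the moribund female array. No member differed between moribund and 3-week C57BL/6 arrays, where 0.0% of all genes were called; 5 members had an unadjusted limma p under 0.05, against 9.65% of all genes, and Cox6b2 stood 0.99 lower in moribund mice (log2 change -0.99, limma adjusted p = 0.275). These comparisons and the one at 3 weeks share the 2 C57BL/6 control arrays.

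At 6 weeks no member differed from control by limma's test. In A/J, where 0.11% of all genes were called, 4 members had an unadjusted p under 0.05, against 5.3% of all genes, and Cox7a1 stood at -0.59, Cox6a2 at -0.24 and Cox8b at 0.10. In C3H/HeJ, where also 0.11% were called, 1 member, Cox5a at 0.51 (SE 0.13, limma adjusted p = 0.394), had an unadjusted p under 0.05, against 4.64% of all genes, and Cox6a2 stood at 0.23, Cox7a1 at 0.00 and Cox8b at -0.29. The single C57BL/6 array at 6 weeks allows no test; set against the mean of the 2 controls, Cox8b was at -0.68, Cox6a2 at -0.76, Cox7a1 at -0.61 and Ndufb1 at 0.40. Adjusted for sex in the fit, as plotted for this group, these were -0.80, -0.74, -0.65 and 0.39, with a median member difference of -0.10 against -0.04 over all genes.

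From 3 to 6 weeks no member was called in either strain with both times. In A/J 0.022% of all genes were called and 4 members had an unadjusted limma p under 0.05, against 4.79% of all genes. In C3H/HeJ 0.176% were called and 10 members had an unadjusted limma p under 0.05, against 13.7% of all genes. There Cox6a2 was higher at 6 weeks by 0.84 (SE 0.26, limma adjusted p = 0.20), Cox7a1 by 0.69 and Cox6c by 0.38. Relative to the mean of its strain's controls, the mean of the muscle trio lay between -0.74 and -0.40 in the A/J arrays at 3 weeks and at -0.40 and -0.09 at 6 weeks. In C3H/HeJ it was at -0.79 and -0.52 at 3 weeks and at -0.17 and 0.14 at 6 weeks. In C57BL/6 it was at -1.08 and -0.56 at 3 weeks, -0.68 at 6 weeks and -1.23 and -0.83 in moribund mice. The mean of the other 80 members stayed between -0.22 and 0.14 in all arrays.

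**Figure D4:**
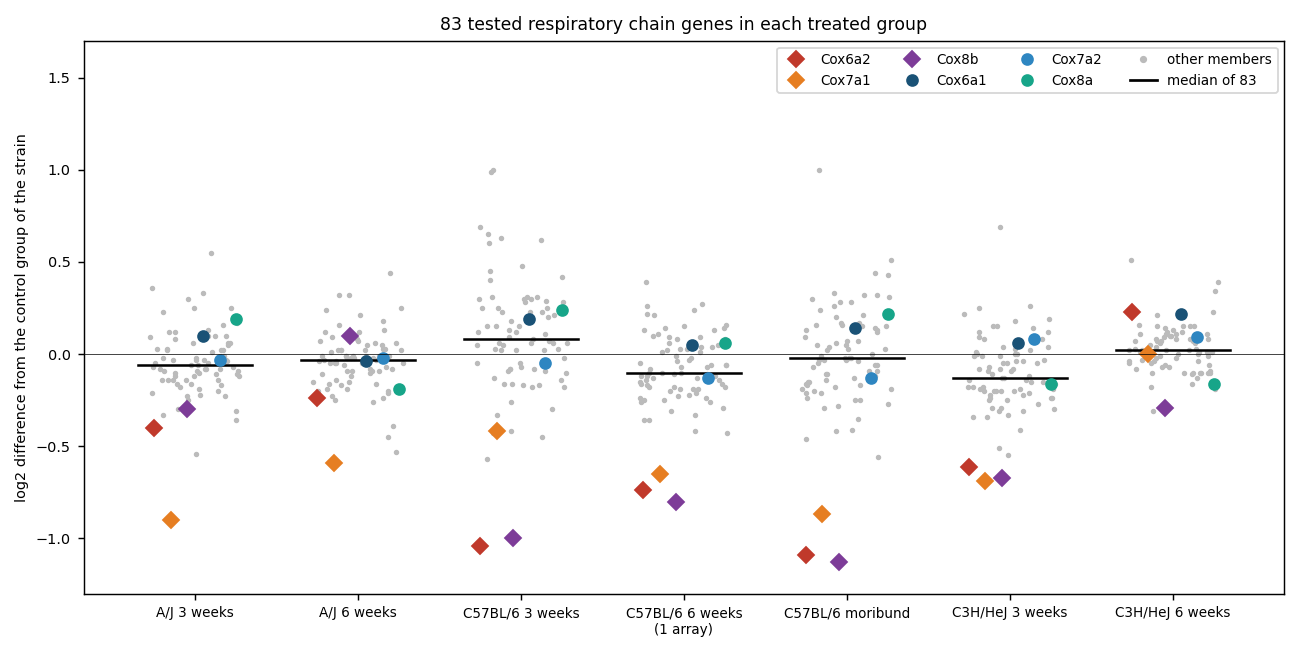
Log2 difference from the control group of the strain for each of the 83 tested members in each treated group, with the muscle forms as diamonds, their general forms as larger circles, other members as small points and the group's median as a line. The medians lie between -0.13 and 0.08, and the 3 muscle forms lie at -1.13 to -0.87 in moribund C57BL/6 mice.

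The response at 3 weeks was then compared between strains by an interaction term. Between C57BL/6 and A/J 1 member was called, against 1.57% of all genes: Cox5a, whose change was higher in C57BL/6 by 0.72 (SE 0.17, limma adjusted p = 0.0387), with 7 members at an unadjusted p under 0.05 (8.4%, against 15.0% of all genes). Leaving out 1 array ended the Cox5a call in 8 of 10 fits, all but those without the A/J male array at 100 mg/kg or the C57BL/6 male array at 3 weeks, with values from 0.53 to 0.92. The trio's responses did not differ by the test, with -0.69 for Cox8b, -0.64 for Cox6a2 and 0.48 for Cox7a1. Between C57BL/6 and C3H/HeJ no member was called, against 0.264% of all genes, and 14 had an unadjusted limma p under 0.05, against 14.8% of all genes; Ndufb1 differed by 1.03 (limma adjusted p = 0.162) and Ndufa8 by 0.84 (limma adjusted p = 0.11). Without the male C3H/HeJ array at 3 weeks 5 members were called. Between C3H/HeJ and A/J no member was called by limma, against 0.011% of all genes, and 0 had an unadjusted p under 0.05, against 3.99% of all genes.

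Before treatment the strains already differed in a few members. Cox7a1 was lower in C57BL/6 than in A/J controls by 1.14 (log2 difference -1.14, SE 0.25, limma adjusted p = 0.019), the 1 member called against 2.91% of all genes, although 23 had an unadjusted p under 0.05 (27.7%, against 16.2% of all genes); leaving out either A/J control or the C57BL/6 male control ended the call. Most members stood slightly lower in C57BL/6, with a median of -0.19 against -0.07 over all genes and 68 of 83 below 0. Ndufa12, a complex I accessory subunit, was higher in C57BL/6 than in C3H/HeJ by 0.61 (SE 0.15, limma adjusted p = 0.0379), the 1 member called against 2.6% of all genes, and leaving out any 1 of the 4 arrays ended the call. Between C3H/HeJ and A/J no member was called, against 0.969% of all genes; 5 had an unadjusted limma p under 0.05, against 7.09% of all genes, with Cox7a1 at -0.96 (limma adjusted p = 0.112).

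Heart muscle markers were also lower at 3 weeks, and whether they and the trio moved together from array to array was not tested. Of 27 heart muscle genes tested, 18 fell at 3 weeks over the 3 strains, against 9.15% of all genes, and 0 rose, against 8.03%. Their median was -0.66 beside the members' -0.01. Sln, a regulator of the calcium pump, fell by 1.20, Tnni3, cardiac troponin I, by 1.17 and Myh6, a cardiac myosin heavy chain, by 1.15. In C57BL/6 15 of the 27 fell at 3 weeks (median -0.92), where 6.0% of all genes fell. In A/J 6 fell (median -0.61) and in C3H/HeJ 7 (median -0.65), where 1.08% and 2.83% of all genes were called. In moribund mice 13 fell and 1 rose against control (median -0.86), where 8.31% of all genes fell and 6.93% rose. None of the 27 was called at 6 weeks by limma's test. Their medians were -0.52 in A/J, where 8 had an unadjusted p under 0.05, and -0.18 in C3H/HeJ, where 1 had. The summed intensity of the 27 was 8018 to 8377 in the C57BL/6 controls, 3585 to 4101 at 3 weeks, 4380 at 6 weeks and 3433 to 4120 in moribund mice. It was 9488 to 11129, 5953 to 6888 and 7445 to 7803 in A/J controls, at 3 weeks and at 6 weeks, and 8458 to 9664, 4857 to 6424 and 7279 to 8573 in C3H/HeJ. The control sums of A/J and C3H/HeJ overlapped. In the controls of A/J, C57BL/6 and C3H/HeJ the mean levels were 7.19, 6.05 and 6.23 for Cox7a1. They were 8.65, 8.59 and 8.40 for Cox6a2, and 7.38, 6.75 and 7.19 for Cox8b. A relation of these levels to the sums was not tested.

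Skeletal muscle markers could be read only in part, since 5 of 18 on the array passed the filter. The fast myosins Myh1, Myh2 and Myh4, with Tnnt3 and Pvalb, were dim. Of the 5, Pygm fell by 0.49 and Eno3 by 0.42. The summed intensity of the 5 overlapped between controls and 3 weeks in each strain. It was 506 to 638 and 407 to 781 in A/J, 409 to 931 and 313 to 456 in C57BL/6, and 515 to 542 and 383 to 773 in C3H/HeJ. Fat, of which the brown kind also makes Cox7a1 and Cox8b, had 4 of 8 tested markers fall over the 3 strains, against 9.15% of all genes. Adipoq was at -1.25 and Car3 at -1.14, and Ucp1, the marker of brown fat, was dim. Smooth muscle had 2 of 9 fall, against the same 9.15% of all genes, Myh11 by 0.74 and Cnn1 by 0.62, with a median of -0.10.

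Among single strains, most calls of lung cell markers were made in C57BL/6, as were most calls over all genes. At 3 weeks 13.1% of all genes were called in C57BL/6, 1.08% in A/J and 2.83% in C3H/HeJ. Over the 3 strains 8.03% of all genes rose and 9.15% fell. Of 20 endothelial genes, 13 fell and 1 rose over the 3 strains (median -0.39), 15 fell in C57BL/6 (median -0.73), 1 in A/J (-0.09) and 1 in C3H/HeJ (-0.25). Their summed intensity went from 20867 to 22302 in C57BL/6 controls to 12162 to 14763 at 3 weeks, and from 21519 to 22601 in A/J controls to 20355 to 22302. Of 15 type 2 alveolar genes, 4 fell over the 3 strains (median -0.12), 5 in C57BL/6 (median -0.42) and 0 in A/J and C3H/HeJ by limma's test (medians 0.06 and 0.02, with 3 and 1 at an unadjusted p under 0.05). Of 12 type 1 alveolar genes 6 fell and 1 rose, of 13 airway genes 6 fell and 0 rose, and of 20 macrophage genes 17 rose and 1 fell, with Trem2 at 2.69 and Gpnmb at 2.37.

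The changes of the muscle trio at 3 weeks, -0.90 to -0.30 in A/J and -0.69 to -0.61 in C3H/HeJ, none of them called in a single strain, were measured in pools in which type 2 markers had medians of 0.06 and 0.02 and 1 endothelial marker in each strain fell. In the same pools airway markers were lower without overlap, their summed intensity going from 32217 to 33975 in A/J controls to 29384 to 30390, and from 30250 to 30746 in C3H/HeJ controls to 25855 to 26467; 1 of 13 in A/J and 3 of 13 in C3H/HeJ fell by limma's test. Smooth muscle markers summed to 4672 to 4816 in A/J controls and 3541 to 3883 at 3 weeks, with 2 of 9 called lower there, against 3997 to 4034 and 3842 to 4201 in C3H/HeJ. Type 1 alveolar markers had medians of -0.09 in A/J and -0.17 in C3H/HeJ, and macrophage markers of 0.58 and 0.94. The mean of the other 80 members stayed near 0 in C57BL/6 pools in which 15 endothelial and 5 type 2 markers fell and 15 macrophage markers rose. With the mean level of the heart markers as a covariate, Cox6a2 changed by 0.11 (SE 0.39), Cox7a1 by -0.11 (SE 0.40) and Cox8b by 0.11 (SE 0.58), and no member was called by limma. In that fit 8 of all genes were called over the strains in place of 1560, and the SE of Cox6a2 was 0.39 in place of 0.14. In bulk lung RNA, fewer cells of a type and less RNA per cell cannot be told apart, and the part of muscle, fat, lung cells or macrophages in the members' values was not tested.

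**Figure D5:**
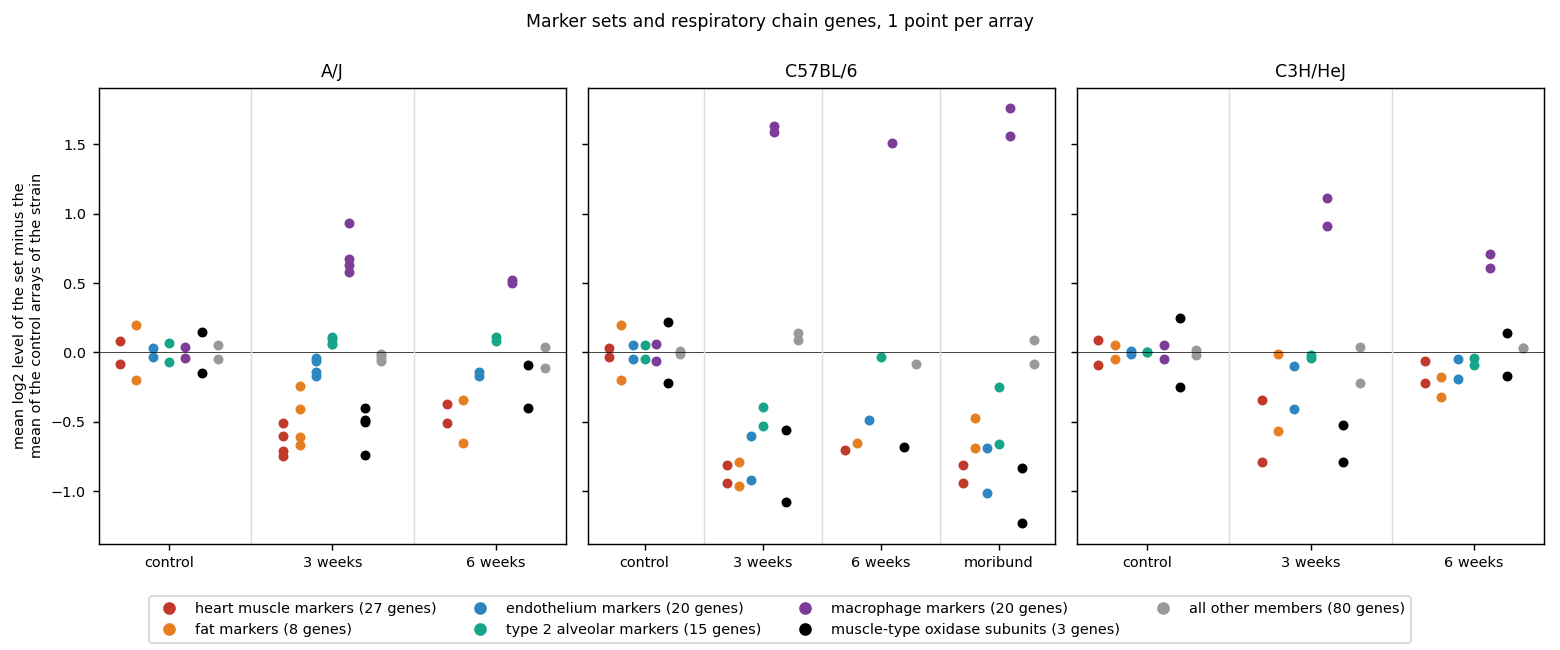
Mean log2 level of each marker set, of the muscle trio and of the other 80 members in each array, minus the mean of the control arrays of the strain; 1 point is 1 array. The trio lies between -1.23 and -0.40 and the heart markers between -0.94 and -0.34 in the 3-week and moribund arrays, while the other members stay between -0.22 and 0.14.

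Few other genes of the mitochondrion were called at 3 weeks, where 17.2% of all genes were over the 3 strains (8.03% rose and 9.15% fell). Over the 3 strains, 1 of 16 tricarboxylic acid cycle and pyruvate dehydrogenase genes rose (Mdh2, 0.22) and 1 fell (Idh2, -0.32), with a median of -0.08. Of 17 fatty acid oxidation genes 2 fell, Acadm by 0.43 and Hadh by 0.27, both dehydrogenases of the beta-oxidation cycle. Of 15 regulators of mitochondrial biogenesis 1 fell, Tfam, a factor that packages and transcribes mitochondrial DNA, by 0.28. Of 19 assembly factors 2 fell, Surf1 by 0.24 and Cox17, a copper chaperone for complex IV, by 0.30. None of 10 carriers was called by limma, and 1 had an unadjusted p under 0.05. Of 18 import genes 1 rose (Timm22, 0.37), and of 74 mitochondrial ribosome genes 1 fell (Mrpl39, -0.33). In C57BL/6 taken by itself 5 of the 74 rose, against 7.08% of all genes, with a median of 0.17 against 0.01 over all genes.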

How the data were processed

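Right lungs from mice of 3 strains were measured on 21 single-colour Affymetrix arrays, 1 pool of several mice each, per the labels. The deposited values are linear probe set intensities; of the software, background correction and scaling behind them the sources used here say nothing. The platform annotation named the genes, and only probe sets with exactly 1 symbol were used. Control probe sets were left out, arrays were quantile normalized, log2(intensity + 16) was taken, the dimmest 33.3% of probe sets were left out (15084 passed), and the brightest probe set stood for each of 9082 genes. All groups were fitted at once with limma 3.58.1 in R 4.3.3, with 1 term for each strain and stage and 1 for sex (10 residual degrees of freedom, 16.8 after shrinkage), and p-values were adjusted over all genes by Benjamini-Hochberg at 0.05. The fit was tested on simulated data. The p-values measure the spread between pools, and the number of arrays limits the precision. Alternatives were the values as deposited, scaling to 1 median, an offset of 64, no filter, every probe set, no sex term and leaving out each array.

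The members, lists and tests were chosen with earlier results of these data known. Named genes were up to 6 called members in each direction with the largest change (or the 2 of smallest p where none was called), the tissue isoforms with their partners, a fixed set of core subunits, and up to 4 genes of smallest p from each list. Cox6c, outside that rule by rank, was named after its values were seen. The Ndufa4 pair and protein sequences were not analysed here. Promoter sequences are credited to RefSeq.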

Additional observations from a re-analysis of the deposited data

Results flagged for a closer look

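Among 29 named genes, the 4 A/J arrays at 3 weeks held 1 array far from the others: the male array at 100 mg/kg had Cox7a1 at 5.87 on the log2 scale, where the other 3 lay at 6.40 to 6.47. Chance sets about 1 in 20 such groups apart. The 3-week change of Cox5a was called different between strains by an interaction test, by 0.72 between C57BL/6 and A/J (limma adjusted p = 0.0387). That call was lost with the values as deposited, without the filter and in most fits leaving out 1 array. Ndufa8 stood above its controls in both C57BL/6 arrays at 3 weeks, by 0.62 in the fit, and below them in both C3H/HeJ arrays, at -0.22. Ndufv1 stood above its controls in both C57BL/6 arrays, by 0.18, and below them in all A/J and C3H/HeJ arrays, at -0.14 and -0.29. These opposite directions were picked by the arrays' order and the difference was not tested by that rule; limma's interaction term gave 0.84 for Ndufa8 between C57BL/6 and C3H/HeJ (adjusted p = 0.11), and for Ndufv1 0.47 between C57BL/6 and C3H/HeJ (adjusted p = 0.294) and 0.32 between C57BL/6 and A/J (adjusted p = 0.469).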

How the results depend on the processing

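Signs and calls of the muscle trio at 3 weeks were kept by scaling to 1 median, an offset of 64 and no sex term, and of the 3 Cox8b lost its call without the filter (limma adjusted p = 0.0551). With the values as deposited, the all-gene median at 3 weeks was -0.27. There 20 members were called at 3 weeks, all lower and 7 of them shared with the 10 (24.1% of members, against 22.4% of all genes). In C57BL/6 2 were called (2.4%, against 4.3% of all genes) and in moribund mice 3 (3.6%, against 7.8%). The C57BL/6 minus A/J response had 0, against 0.3% of all genes. The C57BL/6 controls had 0 against A/J and C3H/HeJ, where 1.5% and 1.0% of all genes were called. The Cox8b pair gave -0.71 (exact permutation, adjusted p = 0.0519). There these members turned at 3 weeks: Atp5a1 -0.22, Cox5a -0.06, Cox6a1 -0.16, Cox6b1 -0.23, Cox7a2 -0.29, Cox7a2l -0.07, Cox8a -0.18, Sdhb -0.26, Uqcrc1 -0.25 and Uqcrfs1 -0.26. Scaling to 1 median ended the 3-week calls of Cox5a, Cox6c, Ndufb11 and Ndufb3 and the moribund calls of Cox5a and Ndufb11 (limma adjusted p 0.0622 to 0.166). It turned Cox7a2 to -0.02 and gave 0 calls for C57BL/6 controls against C3H/HeJ, where 244 of all genes were called. An offset of 64 gave 1 call in A/J at 3 weeks and 1 for C3H/HeJ controls against A/J, where 106 and 92 of all genes were called. Every probe set gave 1 call each in C3H/HeJ at 3 weeks, from 3 to 6 weeks and for its controls against A/J. There 268, 14 and 158 were called in all. It gave 4 for the C57BL/6 controls against A/J, where 484 were called in all. Without the filter the C57BL/6 minus A/J response had 0 calls, where 109 of all genes were called.

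2 covariates were added after seeing the data. The Gapdh ratio ended the 3-week calls of Cox6c (limma adjusted p = 0.0539), Ndufb11 (0.051) and Ndufb3 (0.0796) and the C57BL/6 call of Uqcrq (0.0578). It turned Cox7a2 to -0.01 and gave 0 calls for the C57BL/6 minus A/J response, where 39 of all genes were called. The heart marker level gave 0 calls at 3 weeks over the strains, in C57BL/6 and in moribund mice, where 8, 40 and 53 of all genes were called. It also gave 0 for the C57BL/6 minus A/J response, where 85 of all genes were called. The C57BL/6 controls against A/J and C3H/HeJ had 0 as well, where 37 and 151 of all genes were called. This covariate turned Cox4i1 to 0.38, Cox6a2 to 0.11, Cox8b to 0.11, Ndufa4 to 0.26, Ndufb11 to 0.20 (0.09 in moribund mice), Ndufs1 to 0.07 and Sdha to 0.64. None of these values was called (limma adjusted p 0.26 to 0.955). The cause of the other changes was not tested.

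Leaving out 1 array, with a lone pool assumed to vary like the other groups, gave 4 to 11 calls at 3 weeks, 1 to 5 in C57BL/6, 0 to 3 in C3H/HeJ, 0 to 4 in moribund mice, 0 to 1 from 3 to 6 weeks in C3H/HeJ, 0 to 1 for the C57BL/6 minus A/J response, 0 to 5 for C57BL/6 minus C3H/HeJ, 0 to 1 for the C57BL/6 controls against A/J and 0 against C3H/HeJ. The pairs ranged from -0.96 to -0.63 for Cox6a2, -0.74 to -0.59 for Cox7a1, -0.95 to -0.55 for Cox8b and -0.27 to 0.18 for Cox4i2. Signs at 3 weeks turned for Atp5a1 (-0.03 to 0.15), Cox4i1 (-0.21 to 0.06), Cox4i2 (-0.25 to 0.01), Cox6b1 (-0.07 to 0.16), Cox7a2 (-0.06 to 0.06), Cox8a (-0.03 to 0.22), Sdhb (-0.05 to 0.15) and Uqcrfs1 (-0.10 to 0.18), none of them called. No paired analysis was possible because no label number links pools across groups and every pool came from other mice; sex is a term of the fit.

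Signal over background limits Cox7a1 and Cox8b, which lay near the offset in treated arrays, and Cox7c, which was too dim to test. It also limits Ndufb1, which was dim in the control arrays, at 5.93 to 6.38.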
